A study of Homo sapiens with 17 samples.

Results

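The messenger RNA response of TF-1 cells to D9 was taken from the 3 TF-1 arrays among the 17 bead arrays of the series. TF-1 is a human erythroleukaemia line that grows only with a supplied cytokine, and its culture medium held interleukin 3 on all 3 arrays. The groups were untreated TF-1 cells, TF-1 cells given 1 µM D9 and TF-1 cells given 5 µM D9, harvested after 48 h, with 1 array each. D9 is an analog of 3-deazaneplanocin A. For comparison, the other acute myeloid leukaemia lines were used in the same way: 3 arrays each for MOLM-14, KG-1a, THP-1 and Mono-Mac-1, and 2 for MV-4-11, untreated and at 1 µM. The series classes TF-1, MOLM-14 and MV-4-11 as sensitive to D9 and the other 3 lines as resistant. No culture was repeated, TF-1 stands for 1 cell line, and the doses of a line were set against the same untreated array.

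3-Deazaneplanocin A inhibits S-adenosylhomocysteine hydrolase, the enzyme that clears the by-product of methylation reactions, and is known for lowering histone methylation by EZH2. Cells of the erythroid lineage are driven by the transcription factor GATA1 and its partners and make haemoglobin, haem and the red cell membrane. Mast cells and basophils share GATA factors with them and store proteases in granules. Cells short of amino acids raise the factor ATF4, which switches on genes for amino acid import, serine and asparagine synthesis and transfer RNA charging.

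Levels are given as normalized log2 signals, on which a step of 1 is a doubling, and each gene is read on its brightest probe. Array medians before normalization lay between 53.9 and 67.4 signal units, and the lowest signal was 30.2 or more on each TF-1 array and on each THP-1 array but 0 on most others. Probes under a mean level of 6.16 were left out, which kept 14337 genes. A gene is said to have risen or fallen where the mean of the 2 doses minus the untreated array passed limma at a Benjamini-Hochberg adjusted p under 0.10 over all tested probes. The error of that test is the spread between the 1 and 5 µM arrays in the 5 lines that have both. It does not hold the spread between repeat cultures, and the untreated array is assumed to vary as much.

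Untreated TF-1 cells carried most of the erythroid markers. Also above all other untreated lines were 1 of 2 measured megakaryocytic, 2 of 3 mast cell and basophil, 1 of 5 monocytic and 2 of 3 progenitor markers. KIT counts for both mast cells and progenitors, and none of these passed limma. Of 12 measured erythroid markers, 10 were above all 5 other untreated lines and 9 passed limma. The foetal globin HBG1 read 14.59 in TF-1 and 5.89 to 6.09 in the other lines, a difference of 8.60 ± 0.14 (standard error, adjusted p = 9.33e-05). Its near-copy HBG2 read 14.67 against 6.12 to 6.36, so the lines did not overlap. HBB, HBA1 and HBA2 differed by 7.36, 6.42 and 6.62, and the carbonic anhydrase gene CA1 by 6.68 ± 0.14. GATA1 stood at 8.60 in TF-1 and 6.03 to 6.19 elsewhere, and KLF1, a second erythroid master regulator, at 8.68 against 6.13 to 6.23. EPOR, the erythropoietin receptor, read 7.85, inside the range of the other lines (6.66 to 8.18). The surface protein CD24 (7.25 ± 0.57), the tubulin TUBB2B (6.86), PPP1R14A (6.34) and the neuropeptide NMU (6.24) were the other largest differences. HBG1, CA1, TUBB2B and NMU read at most 6.14 in the other untreated lines, below the filter level of 6.16. They passed the filter through TF-1, so their errors and p-values are given as a description. HBG2, HBB, HBA1, HBA2, GATA1 and KLF1 read at most 6.505 there, so the spread behind their tests is that of dim signals. The platelet integrin ITGA2B (10.48), the monocyte integrin ITGAM (9.999), the mast cell and basophil markers KIT (8.51) and HDC (7.44) and the progenitor marker CD38 (8.32) were also highest in TF-1. CD34 (11.64) was second to KG-1a, and CPA3 (6.61) was far below KG-1a (10.28). The granule genes ELANE and AZU1 read 6.62 and 6.67 in TF-1, against 11.71 or more in every other line but KG-1a. Over all genes 355 were higher in untreated TF-1 (2.48%) and 58 were lower (0.405%), led by the RNA-binding protein IGF2BP2 at -4.56 ± 0.51, the receptor P2RY8 at -3.92 and caspase 1 (CASP1) at -3.91, with SNTB1 and TNS3 next.

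**Figure D1:**
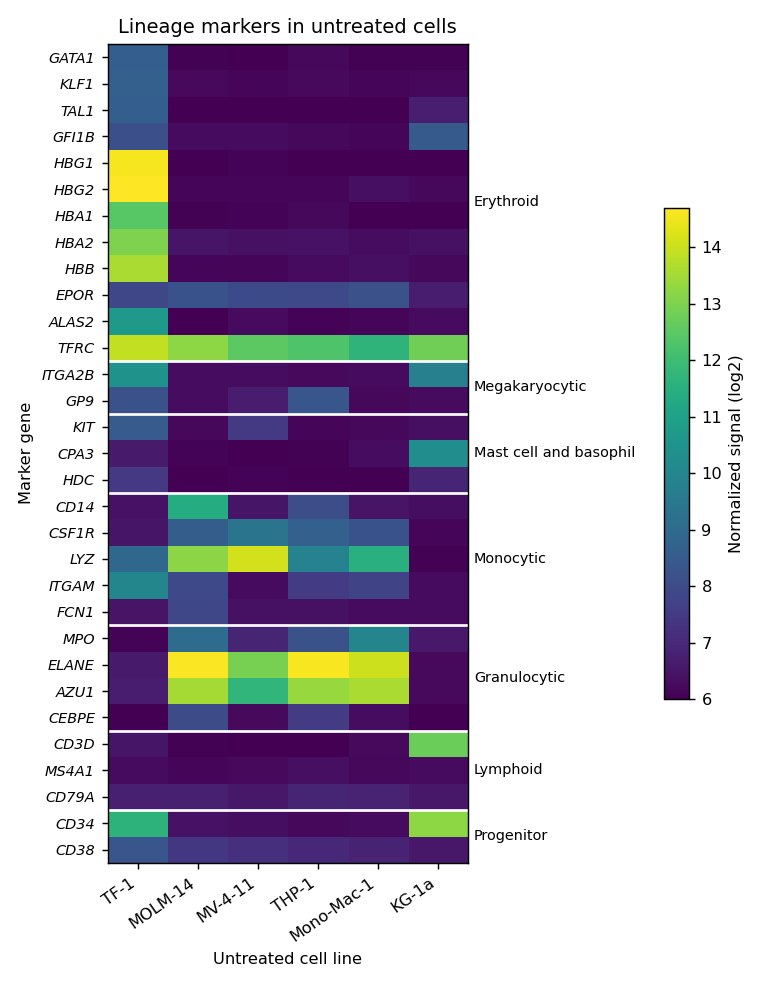
Normalized log2 signal of lineage markers on the untreated array of each of the 6 lines. TF-1 stands apart by the globins, GATA1, KLF1 and ALAS2, while ELANE and AZU1 are bright in MOLM-14, MV-4-11, THP-1 and Mono-Mac-1, and CD3D in KG-1a.

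The question asked of the D9 arrays was which genes moved in TF-1 at both doses. At least 2-fold and in the same direction at both doses, 30 genes were higher (0.209% of 14337) and 16 lower (0.112%). These have no test, because the rule uses the values themselves. The gene just inside was CHMP3, with a smaller change of 1.00 log2 units, and the gene just outside TMEM256 with 0.99. By limma 323 genes rose (2.25%) and 332 fell (2.32%), with a median size of 0.71. The median change over all genes was 0.0084. Of the 46 2-fold genes 45 were among these, all but the interferon-induced gene IFIT2. Their calls, errors and p-values rest on the values that chose them and are given as a description. Of the 655 called genes 531 were farther from untreated at 5 µM than at 1 µM, and so were 44 of the 46, with both doses read against the same array. With the 3 TF-1 arrays alone, which leave 1 residual degree of freedom for the spread, 32 genes passed. The count was 407 without MOLM-14 and 363 with median scaling.

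**Figure D2:**
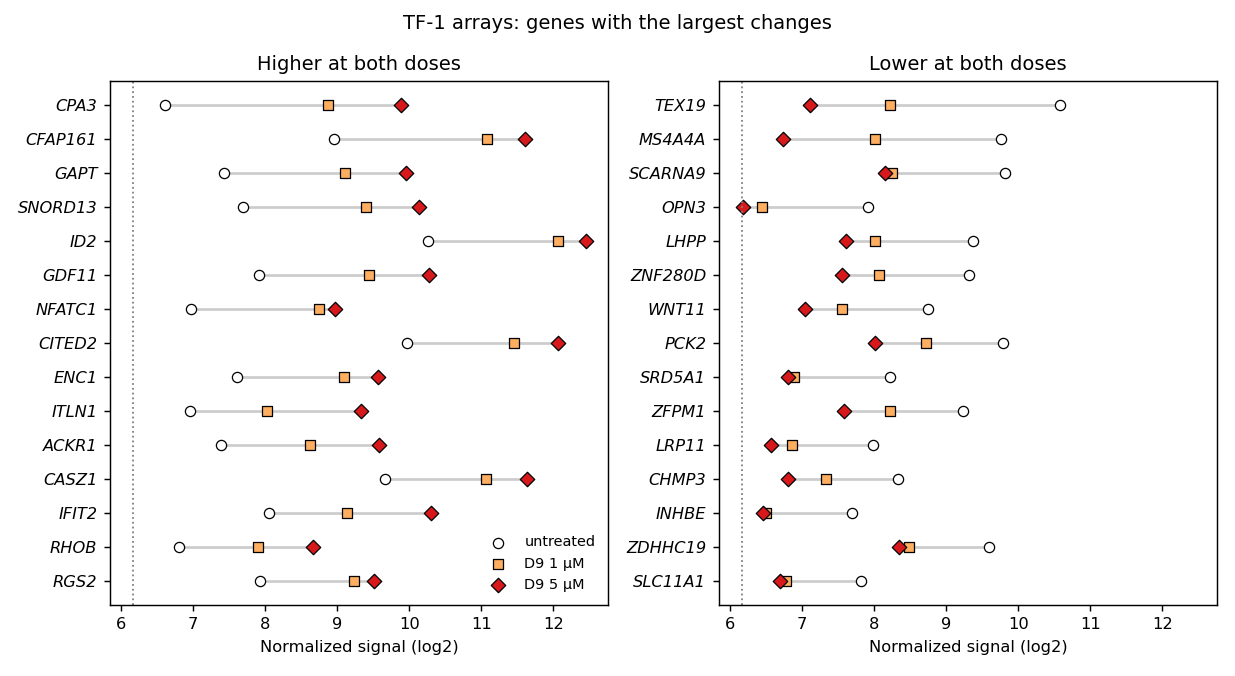
Normalized log2 signal on the 3 TF-1 arrays for the 15 genes with the largest rise and the 15 with the largest fall among those at least 2-fold at both doses. The dotted line marks the filter level of 6.16, and the 1 µM array lies between the other 2 in each row.

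Among the genes that went up, the largest change was that of CPA3, a carboxypeptidase of mast cell granules. It read 6.61 in untreated cells, 8.88 at 1 µM and 9.89 at 5 µM, a mean change of 2.77 ± 0.34 (adjusted p = 0.00389). CPA3 thus went from near the filter level to a middle level. CFAP161, a protein of cilia, read 8.95, 11.08 and 11.60, a change of 2.39 ± 0.22 (adjusted p = 0.000916). The inhibitor of helix-loop-helix factors ID2 stood at 10.26 untreated, 12.06 at 1 µM and 12.45 at 5 µM (adjusted p = 0.00265). It was the brightest of the 15. GAPT, an adaptor protein of blood cells, rose by 2.09, the small nucleolar RNA SNORD13 by 2.08 and GDF11, a secreted factor of the TGF-beta family, by 1.95. A dimmer GDF11 probe read 7.34, 7.08 and 7.77, a mean change of 0.09 that did not pass.

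The calcium-regulated factor NFATC1 read 6.97, 8.75 and 8.96, and CITED2, a coregulator of transcription, 9.96, 11.45 and 12.07. Both rose, with adjusted p of 0.000916 and 0.0286. CASZ1, a zinc finger factor, went from 9.67 to 11.07 and 11.64 (1.69 ± 0.20). ACKR1, which carries the Duffy blood group, went from 7.38 to 8.62 and 9.58 (1.72 ± 0.27, adjusted p = 0.0124). ENC1 and the lectin ITLN1 rose by 1.73 and 1.72, the small GTPase RHOB by 1.48 and RGS2, a brake on G-protein signalling, by 1.44. IFIT2 read 8.05, 9.14 and 10.30 and missed the test (adjusted p = 0.102). The other 15 higher genes had mean changes of 1.12 to 1.42 and were all called. Among them were the linker histones H1-2 and H1-10, the iron carrier LCN2 (1.26), the membrane protein CAV1 (1.36) and the fatty acid receptor CD36 (1.12). A dimmer CAV1 probe, at 6.49 untreated, read 0.12 without passing, while a dimmer CD36 probe passed (0.68). The near-copies EOLA1 and EOLA2 cannot be told apart with certainty, and the 2 dimmer probes of TDP1 read -0.29 and -0.22 while its brightest rose by 1.13.

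The largest fall was that of TEX19, a gene otherwise known from germ cells. Its level went from 10.58 untreated to 8.22 at 1 µM and 7.10 at 5 µM, and it fell by 2.92 ± 0.33 on the log2 scale (adjusted p = 0.00258). In the other untreated lines TEX19 read 6.37 to 7.08, so the 5 µM array was close to their highest. MS4A4A, a tetraspan surface protein of the myeloid and mast cell lineages, read 9.76, 8.02 and 6.74, a change of -2.38 ± 0.35 (adjusted p = 0.00925). The small Cajal body RNA SCARNA9 changed by -1.62, the opsin OPN3 by -1.60 (to 6.18 at 5 µM, at the filter level), the phosphatase LHPP by -1.57 and the zinc finger gene ZNF280D by -1.51. WNT11, a secreted signalling protein, read 8.75, 7.56 and 7.04, a change of -1.45 ± 0.18.

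Further down were PCK2 (-1.42), the steroid reductase SRD5A1 (-1.37), ZFPM1 (-1.33), the receptor-related LRP11 (-1.26) and CHMP3 (-1.26), a part of the machinery that cuts membranes. INHBE, a subunit of activin E, changed by -1.22, the palmitoyl transferase ZDHHC19 by -1.18, the metal transporter SLC11A1 by -1.09 and TRNP1 by -1.06. All 16 were called. Of these 16, 12 were higher in untreated TF-1 than in every other untreated line, and so were 12 of the 30 higher genes, against 18.3% of all genes. The untreated TF-1 array enters both comparisons, so the count is not independent of the fall.

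Of 27 measured genes of the ATF4 amino acid response 10 fell and 0 rose (37.0% fallen, against 2.32% of all genes), 21 lay below 0 and the median was -0.45, with -0.33 at 1 µM. PCK2, the mitochondrial enzyme that feeds serine and glucose synthesis, read 9.78 untreated, 8.72 at 1 µM and 8.01 at 5 µM, a change of -1.42 ± 0.26 (adjusted p = 0.0254). DDIT4, a stress-induced brake on mTORC1, read 12.98, 12.12 and 11.46, a change of -1.19 ± 0.23 (adjusted p = 0.0293). Levels of both were lower at 5 than at 1 µM. SLC7A5, the large neutral amino acid transporter, read 10.76, 9.80 and 9.53 (-1.09 ± 0.18, adjusted p = 0.0155). DDIT3, the stress factor CHOP, read 8.46, 7.90 and 7.41 (-0.81 ± 0.19, adjusted p = 0.055), a call lost with median scaling. The remaining 6 that fell were asparagine synthetase (ASNS, -0.79 ± 0.17), the tryptophanyl-tRNA synthetase WARS1 (-0.68), the serine synthesis enzyme PSAT1 (-0.67), the transfer RNA exporter XPOT (-0.64), the glutathione-cleaving CHAC1 (-0.63) and the pseudokinase TRIB3 (-0.55).

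Further enzymes of serine and one-carbon metabolism or of transfer RNA charging did not pass, with PSPH at -0.53, PHGDH at -0.49, MTHFD2 at -0.47 and AARS1 at -0.45. ATF4 itself read 13.73, 13.87 and 13.94 (0.17 ± 0.13, adjusted p = 0.688), and the cystine carrier SLC7A11 stayed near the filter level on every TF-1 array. Medians of the list in the other lines were lowest in MV-4-11 (-0.31), followed by Mono-Mac-1 (-0.21) and KG-1a (-0.17), and within 0.02 of 0 in THP-1 and MOLM-14. No member passed the test of TF-1 against the other lines, so the falls are not shown to be particular to TF-1. The number of members that fell was 5 with median scaling, 6 with the authors' log2 values, 6 with an offset of 16 and 0 with the TF-1 arrays alone.

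The promoters of ASNS and CHAC1 are shown because they hold the composite ATF4 and C/EBP element, searched as TGATGNAA on both strands. They are RefSeq windows (GRCh38.p14) of 300 bases that end after the start of the gene, with the element in capitals. ASNS lies at chr7:97872359-97872658 on the minus strand, with the element 68 bases before the start. CHAC1 lies at chr15:40953221-40953520 on the plus strand, with the element on the opposite strand, 209 bases before the start.
ASNS: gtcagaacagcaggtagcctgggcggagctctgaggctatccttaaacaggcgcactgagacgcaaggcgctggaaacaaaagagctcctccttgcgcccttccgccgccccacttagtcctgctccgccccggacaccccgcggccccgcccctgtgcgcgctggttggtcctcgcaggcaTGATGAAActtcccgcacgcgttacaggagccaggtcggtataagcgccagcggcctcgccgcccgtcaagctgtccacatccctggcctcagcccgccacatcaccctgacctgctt
CHAC1: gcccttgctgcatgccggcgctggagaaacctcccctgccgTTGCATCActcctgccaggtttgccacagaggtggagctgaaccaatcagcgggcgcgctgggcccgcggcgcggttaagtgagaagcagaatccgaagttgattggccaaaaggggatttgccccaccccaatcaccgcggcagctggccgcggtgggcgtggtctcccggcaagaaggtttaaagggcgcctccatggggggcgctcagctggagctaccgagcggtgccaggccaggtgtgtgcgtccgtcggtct
Windows were found for 22 of the 27 measured members, and 6 held the element (27.3%), among them 2 of the 10 that fell. Of all 27305 windows 3.67% held it.

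Of 19 measured genes of mast cells, basophils and eosinophils 4 rose (21.1%, against 2.25% of all genes) and 1 fell, with 17 above 0 and a median of 0.22. Beside CPA3 the tryptase genes TPSAB1 and TPSB2 rose. TPSAB1 read 7.90 untreated, 8.85 at 1 µM and 9.32 at 5 µM (1.19 ± 0.19, adjusted p = 0.0143) and TPSB2 7.24, 8.11 and 8.39 (1.01 ± 0.19, adjusted p = 0.0257), but their sequences are so alike that they may count as 1 signal. FCER1A, a chain of the IgE receptor, read 11.23, 11.70 and 12.58 (0.90 ± 0.25, adjusted p = 0.0964) and lost its call with an offset of 16 or with no filter. SLC18A2, which loads histamine into granules, read 8.90, 8.11 and 8.10 and fell by 0.80 ± 0.12. The histamine enzyme HDC read 7.44, 7.65 and 8.87 without passing (adjusted p = 0.372), and GATA2 changed by -0.29. In bulk RNA a change in the share of cells of a kind and a change per cell cannot be told apart. CPA3 was also higher in KG-1a, by 1.63, and within 0.24 of 0 in the other 4 lines. The list median was 0.27 in KG-1a, above that of TF-1, 0.16 in MOLM-14 and 0.02 to 0.07 in the others. No member passed the test of TF-1 against the other lines.

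The CPA3 promoter is printed because it holds the GATA core AGATAA at 2 places, 173 and 45 bases before the start, shown in capitals. It lies at chr3:148865046-148865345 on the plus strand (RefSeq, GRCh38.p14).
CPA3: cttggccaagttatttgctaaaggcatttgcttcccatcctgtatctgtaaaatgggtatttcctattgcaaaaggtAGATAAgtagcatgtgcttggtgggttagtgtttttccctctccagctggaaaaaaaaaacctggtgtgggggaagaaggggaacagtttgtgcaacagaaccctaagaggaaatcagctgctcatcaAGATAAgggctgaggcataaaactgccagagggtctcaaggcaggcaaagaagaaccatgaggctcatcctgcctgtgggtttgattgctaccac
AGATAA on either strand was present in 4 of the 25 higher 2-fold genes with a window (CPA3, GAPT, ITLN1 and EOLA1), in 0 of 11 lower genes and in 10.5% of all windows. Among all genes that rose, 20 of 260 windows held it (7.69%), and among those that fell, 14 of 251 (5.58%).

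**Figure D3:**
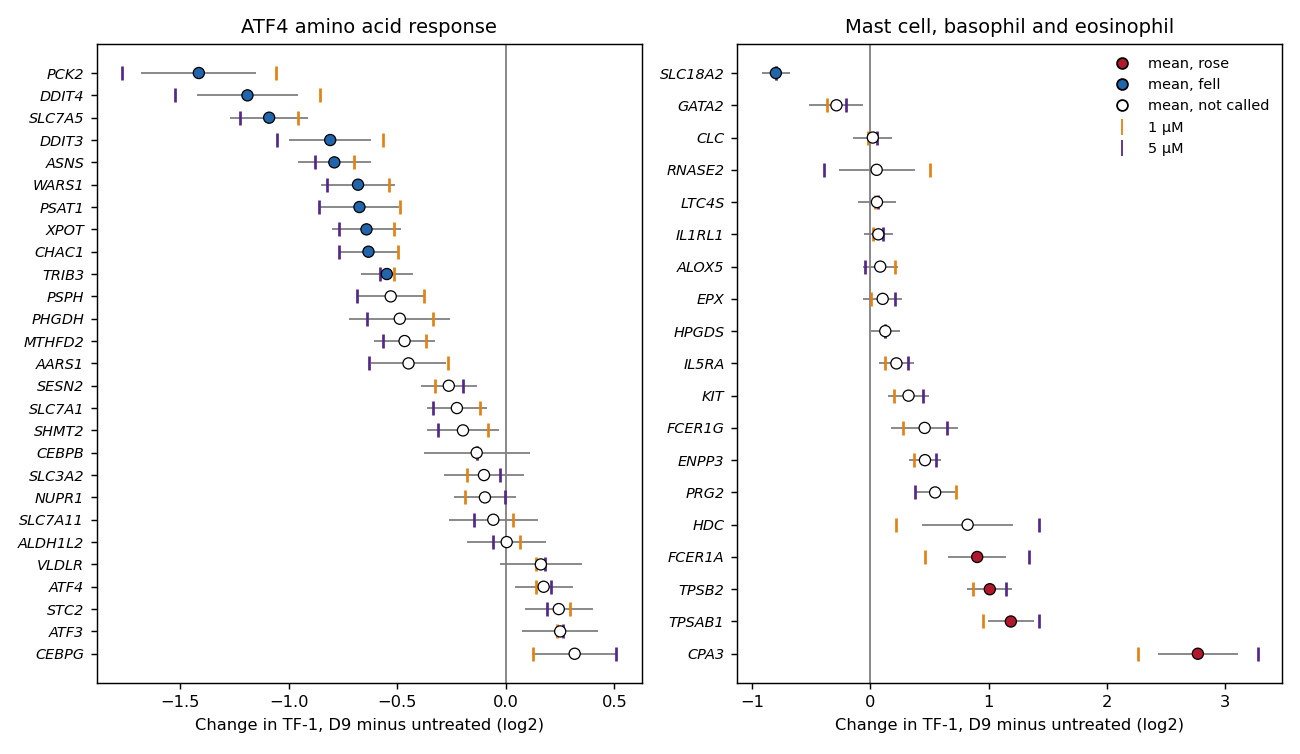
Change in TF-1 (log2) for the measured members of the ATF4 amino acid response and of the mast cell, basophil and eosinophil list. Circles are the mean of the 2 doses with limma's standard error, filled where the gene rose or fell, and ticks are the 1 and 5 µM values. The 10 filled circles on the left lie between -1.42 and -0.55.

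Most erythroid genes did not pass the test, and those that passed moved in both directions. The counts of these and the further lists stand beside 2.25% of all genes risen and 2.32% fallen. The shares risen and fallen were 10% and 10% for globins, and 14.3% and 9.52% for the red cell membrane. They were 4.55% and 0% for haem and iron uptake, 0% and 9.09% for transcription factors, and 12.5% and 0% for other erythroid genes. Of 10 globin list genes 1 rose and 1 fell, with a median of -0.03. HBG1 read 14.59, 14.53 and 14.61 and HBG2 14.67, 14.60 and 14.67. Both lay close to the brightest signals of these arrays, where a rise could hardly show. HBB, at 13.58, 13.78 and 14.08, did not pass either (adjusted p = 0.316). AHSP, the chaperone of alpha globin, rose by 0.93 ± 0.16 (adjusted p = 0.0196), and HBQ1, a minor alpha-like globin, fell by 0.96 ± 0.15 (adjusted p = 0.0124). Of 21 genes of the red cell membrane 3 rose, ACKR1, CD36 and EPB42 (0.90), and 2 fell, the Rhesus genes RHD (8.75, 8.07 and 7.39) and RHCE (9.85, 9.11 and 8.85). RHD and RHCE are near-copies. Among 22 genes of haem synthesis and iron uptake SLC25A37, the mitochondrial iron importer, rose by 0.62, a call lost under 3 of the 6 processing alternatives.

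Of 22 erythroid transcription factors 0 rose and 2 fell. ZFPM1, the partner protein FOG1 of GATA1, read 9.23, 8.22 and 7.58 (-1.33 ± 0.20, adjusted p = 0.0109). LMO2, which joins GATA1 and TAL1 in a DNA-bound complex, read 12.57, 11.91 and 11.21 (-1.01 ± 0.22, adjusted p = 0.0432), and lost its call with median scaling. Both levels were lowest at 5 µM. GATA1 read 8.60, 8.52 and 8.78 (0.05 ± 0.16) and KLF1 8.68, 8.64 and 8.87 (0.08 ± 0.13), with adjusted p of 0.958 and 0.896. Of 16 other erythroid genes the mitophagy receptor BNIP3L and FAXDC2 rose, by 0.76 and 0.79.

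Megakaryocyte and platelet genes had a median of 0.29, with 3 of 17 risen and 1 fallen (all genes, 2.25% and 2.32%). The matrix protein THBS1 read 6.57, 7.35 and 8.43 (1.32 ± 0.30), and the platelet kinase substrate PLEK (1.20) and NRGN (0.82) rose. ITGB3, the beta chain of the fibrinogen receptor, fell by 0.52. The calls of PLEK, NRGN and ITGB3 were each lost under at least 1 processing alternative. ITGA2B, the alpha chain and the defining marker, changed by -0.35 without passing.

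Among stem and progenitor genes CD34 read 11.64, 10.96 and 10.91 (-0.70 ± 0.14, adjusted p = 0.0344) and CD38 8.32, 7.38 and 7.06 (-1.10 ± 0.16, adjusted p = 0.009). Both fell, while the aldehyde dehydrogenase ALDH1A1 rose by 0.64. CD34 and ALDH1A1 lost their calls with an offset of 16, a bright second CD34 probe read 11.10, 10.46 and 10.10 (-0.82, adjusted p = 0.0364), and a dim probe near the filter level read 0.04. The list of 22 had a median of 0.06. The monocyte integrin ITGAM fell by 0.86 ± 0.18, a call lost with median scaling, and MS4A3 fell by 0.84, while monocyte, granulocyte and lymphoid lists had 0, 1 and 0 members risen. In the granulocyte list the riser was LCN2, which read 8.89, 10.03 and 10.27.

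TF-1 cells depend on cytokine signalling, and most receptor genes did not pass. Of 28 genes for receptors of interleukin 3, GM-CSF and erythropoietin and their partners, 2 rose (IL1RAP and SHC1, both lost under 3 processing alternatives) and 1 fell. That was STAT5B, a transducer of these receptors, which read 8.91, 8.21 and 8.01 (-0.79 ± 0.13, adjusted p = 0.0139). IL3RA read 7.03, 7.13 and 7.91 (adjusted p = 0.465), EPOR 7.85, 8.08 and 7.73, and CSF2RB, the shared beta chain, 6.65, 6.55 and 6.68. Among 24 genes of STAT5 and cytokine output ID1 fell by 0.97 ± 0.17 and the cytokine OSM by 0.86, and DUSP6 and DOK2 rose by 0.76 and 0.80. DUSP6, a phosphatase of ERK, was the only gene of 18 in the ERK output list to pass, and the list had 14 members above 0 and a median of 0.21. A dimmer DUSP6 probe near the filter level read 0.001 without passing. PIK3CG, a PI3K catalytic subunit, rose by 0.81, losing its call with median scaling. FOXO targets had 3 of 21 risen (all genes, 2.25%) and a median of 0.23: CITED2, FBXO32 (0.74) and KLF2 (0.70). FBXO32 and KLF2 lost their calls under 3 and 2 processing alternatives.

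Of 10 anti-apoptotic genes 2 rose (20%, against 2.25% of all genes) with a median of -0.03, and of 14 pro-apoptotic genes 1 rose and 1 fell. BIRC5, which codes for survivin, read 9.44, 10.06 and 10.40 (0.79 ± 0.21, adjusted p = 0.093), and BIRC2 rose by 0.83. The call of BIRC5 was lost under 3 processing alternatives and that of BIRC2 under 2. BCL2L11, the gene for BIM, read 8.23, 8.34 and 8.63 without passing (adjusted p = 0.486). BAX, a pore-forming killer, fell by 0.63 with its call lost under 3, and its dimmer probes read 0.05 and -0.08. Of 24 p53 targets ZMAT3 and TP53I3 rose, by 0.73 and 0.83, and CDKN1A, the cell cycle inhibitor p21, read 7.71, 7.97 and 8.77 (adjusted p = 0.266). Both dimmer ZMAT3 probes lay below 0 by less than 0.10, and a dimmer TP53I3 probe near the filter level read 0.04 without passing. No gene of 37 for S phase and DNA replication passed, with a median of 0.04, and BIRC5 was the sole one of 32 for mitosis (median 0.14), while both medians lay below 0 in the other 5 lines. MYC did not pass (0.25, adjusted p = 0.679). Of 25 genes of ribosome biogenesis, 20 lay below 0 (median -0.25) and NOP16 fell by 0.79, a call lost with median scaling and with an offset of 16.

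In the methylation pathway addressed by the parent compound, AHCY, the gene for S-adenosylhomocysteine hydrolase, read 11.43, 11.29 and 10.92 (-0.32 ± 0.19, adjusted p = 0.536). Of the 16 genes of its cycle 12 lay below 0, with a median of -0.33, and 2 fell. CTH, which makes cysteine from cystathionine, read 9.64, 9.03 and 8.55 (-0.84 ± 0.17, adjusted p = 0.0356), and ADK, the adenosine kinase, 9.68, 9.12 and 9.09. Median scaling ended both calls, and that of ADK was also lost with the authors' log2 values and with an offset of 16. The dimmer ADK probes read -0.21 to -0.002 without passing. MAT2A, which makes S-adenosylmethionine, read 12.10, 11.51 and 11.26 without passing (adjusted p = 0.145). EZH2 read 7.69, 7.45 and 7.89 (-0.02 ± 0.19, adjusted p = 0.99), and 1 of 12 genes of its complex passed, JARID2, which rose by 0.65 and lost its call under 3 processing alternatives.

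Histone genes lay above 0 in 22 of 24 cases, with a median of 0.36, the highest of the 43 lists in TF-1. The median of this list was 0.41 in Mono-Mac-1, above that of TF-1, 0.30 in THP-1 and 0.04 to 0.15 in the others. H1-2 read 9.49, 10.63 and 11.18 (1.42 ± 0.24) and H1-10 7.30, 8.44 and 8.64 (1.24 ± 0.18), both linker histones. H2BC8 rose by 0.62, a call lost with median scaling, and H2BC9 fell by 0.91 ± 0.15. The RNA exosome subunit EXOSC6 fell by 1.07 ± 0.21, and the purine synthesis enzymes GMPS and PPAT fell by 0.58 and 0.53, with both calls lost under 3 processing alternatives. In the other lines EXOSC6 lay between -1.17 and -0.67, GMPS between -0.81 and -0.45 and PPAT between -0.71 and 0.005. Among glucose and hypoxia genes SLC2A3, a glucose transporter, rose by 1.23 ± 0.24 and NDRG1 by 1.07, while VEGFA fell by 0.84. The chemokine CXCL8, the polymerase subunit POLR2A, the integrin ITGA9, the protease CTSB and HLA-G rose by 0.83, 0.70, 0.90, 0.76 and 0.66, with the calls of CTSB and HLA-G lost under 2 and 1 processing alternatives. On its brightest probe no gene passed in the lists for interferon-stimulated genes, MHC class II, endoplasmic reticulum stress, heat shock or cholesterol synthesis. The same held for oxidative phosphorylation, ribosomal proteins, death receptors and G1 cyclins. Dimmer probes of IRF7 (0.63) and CD74 (-0.57) did pass, while another dimmer CD74 probe (-0.31) did not.

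**Figure D4:**
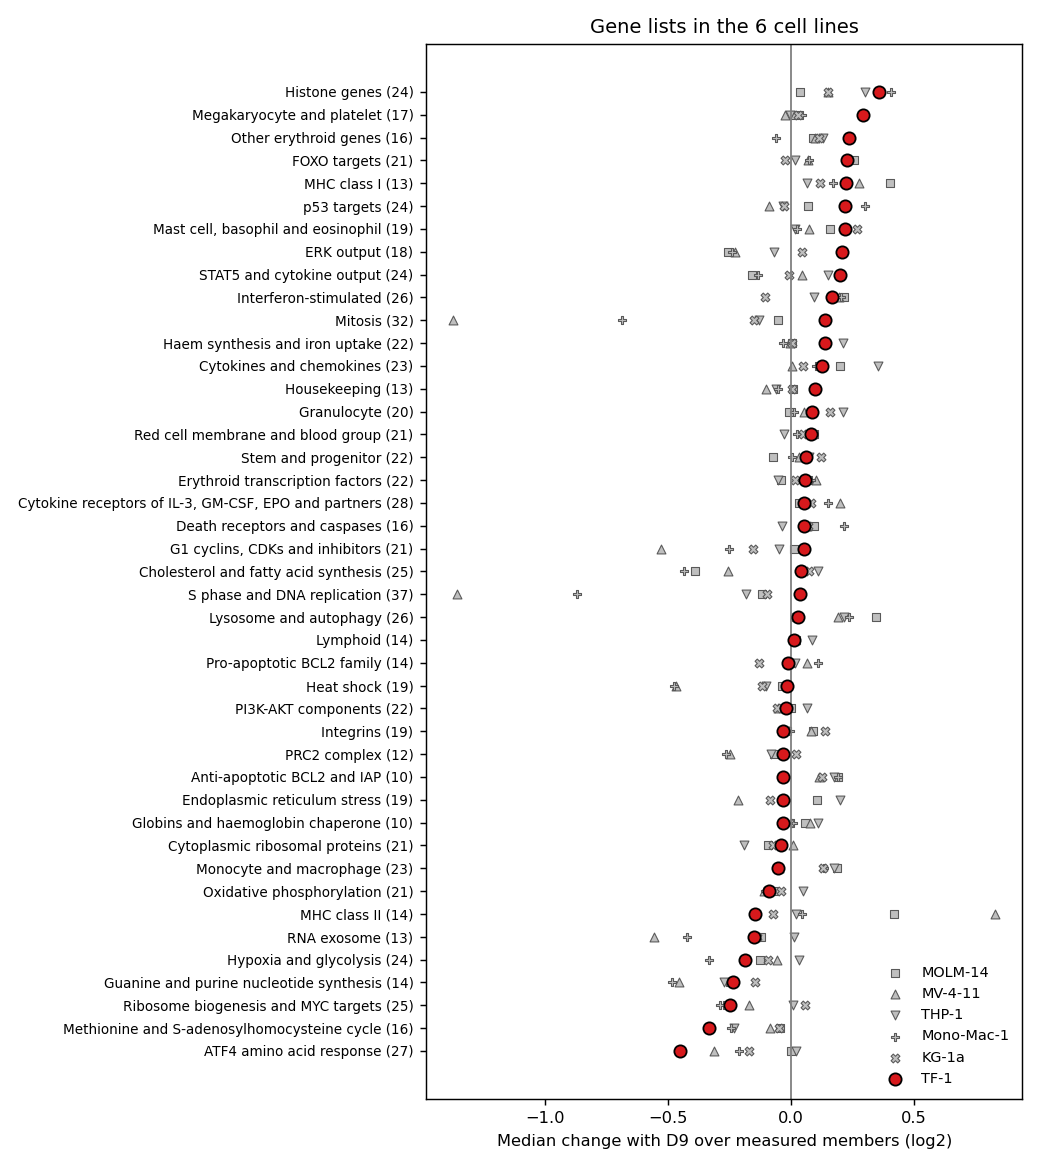
Median log2 change with D9 over the measured members of each of 43 gene lists (number in brackets), in TF-1 (red) and the other lines (grey). Of the TF-1 medians the lowest is that of the ATF4 amino acid response (-0.45) and the highest that of histone genes (0.36, with 0.41 in Mono-Mac-1). For mitosis TF-1 lies above 0 (0.14) where the others lie below.

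The last comparison asked where the response of TF-1 differed from that of the other lines, with 1 value per line, TF-1 against 5. Of 14337 genes 1 was called (0.00697%), and 607 had an unadjusted p under 0.05. That gene was TEX19, with a difference of -2.63 ± 0.22 (adjusted p = 0.0907). KG-1a showed a change of -0.44, THP-1 and Mono-Mac-1 each showed -0.43, MOLM-14 showed -0.18 and MV-4-11 showed 0.06. TEX19 read 6.37 to 7.08 in these lines untreated, not far above the filter level of 6.16. A fall as large as that of TF-1 could not show there, and the part of this in the difference was not tested. The call was lost without THP-1, Mono-Mac-1, KG-1a or MOLM-14 (adjusted p 0.122 to 0.395), with median scaling, at 1 µM alone and against THP-1 alone. The next smallest p belonged to ACKR1 (1.73 ± 0.17) and ITLN1 (1.61 ± 0.16), each with an adjusted p of 0.105. Both read at most 6.06 in the other untreated lines, below the filter level of 6.16, so they passed the filter through TF-1 and their small changes elsewhere are no measure of the other lines. Both were left out at the 60th percentile filter. CASZ1 (1.64), MYH6, a heart muscle myosin gene (1.41), LCN2 (1.19), the laminin chain LAMC3 (-1.14) and ZDHHC19 (-1.18) followed at 0.155. ITGAM (-1.15) and INHBE (-1.28) had adjusted p of 0.178 and 0.188. ITGAM lay between 0.17 and 0.40 in the 5 other lines, the opposite direction to TF-1. Untreated it read 6.25 in KG-1a and 6.26 in MV-4-11, near the filter level, where a fall could hardly show. In THP-1, Mono-Mac-1 and MOLM-14 it read 7.51 to 7.92. In the other untreated lines LAMC3 read at most 6.20 and ZDHHC19 at most 6.83, near the filter level of 6.16. Falls as large as those of TF-1 could hardly show there. MYH6 (at most 6.37) and LCN2 (at most 6.31) were also near that level in those lines. CPA3 did not pass (2.43 ± 0.60, adjusted p = 0.837).

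**Figure D5:**
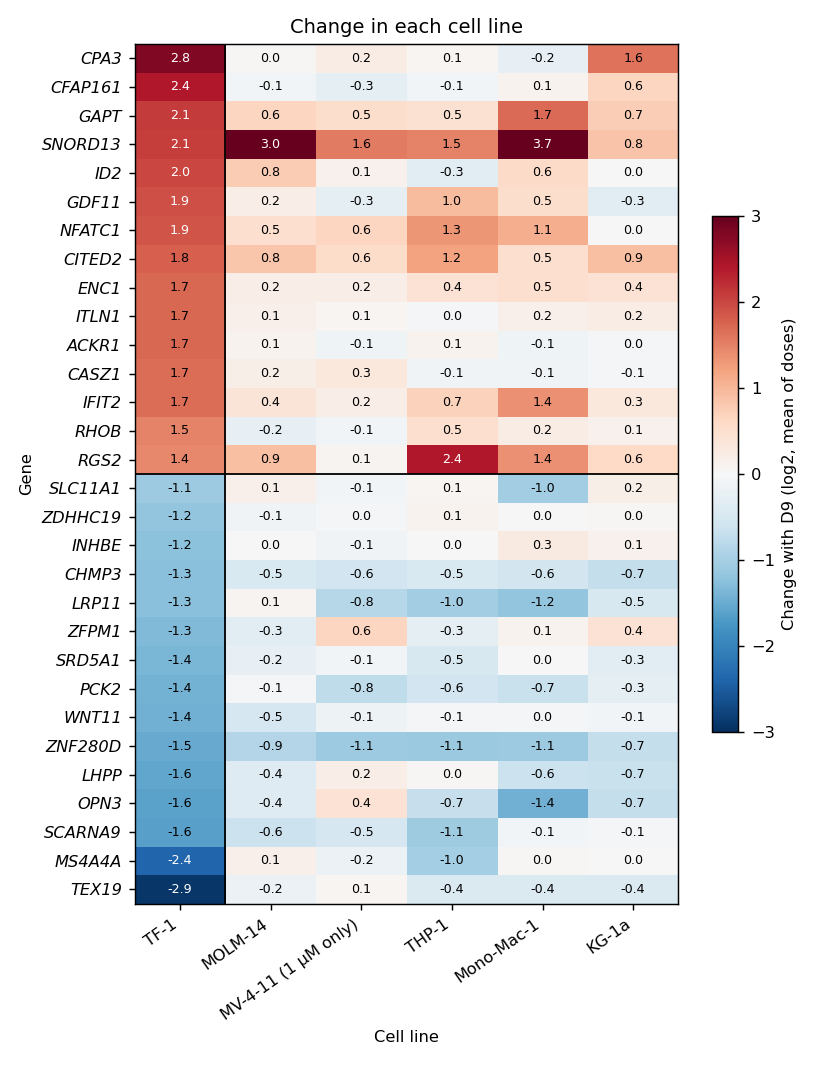
Mean log2 change with D9 in the 6 lines for the 15 genes with the largest rise and the 15 with the largest fall in TF-1. Colours end at 3 and -3. SNORD13, RGS2 and ZNF280D move the same way in every line, while ACKR1 and ITLN1 were below the filter level in the other untreated lines.

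Other parts of the response were shared. Of the 46 2-fold genes of TF-1, 11 were 2-fold the same way at both doses in Mono-Mac-1 (23.9% of the TF-1 genes and 7.48% of 147), 4 in THP-1 (8.70%, and 3.85% of 104), 1 in MOLM-14 (SNORD13) and 1 in KG-1a (CPA3). Those of Mono-Mac-1 included CAV1, CD36, FOXD4, GAPT, H1-2, OPN3, LRP11 and IFIT2, and RGS2, SNORD13 and ZNF280D were among those of both THP-1 and Mono-Mac-1. Of the 14337 tested genes, those 2-fold at both doses numbered 30 in MOLM-14 and 14 in KG-1a, against the 147 and 104 above. The 1 shared gene was 3.33% of the 30 and 7.14% of the 14. A line with more 2-fold genes has more room for overlap, so the counts do not rank the lines by sharing. Of the 323 genes that rose in TF-1, between 68.7% (THP-1) and 81.1% (KG-1a) lay above 0 in each other line, with medians of 0.14 to 0.25, where all genes gave 49.3% to 52.7%. Of the 332 that fell, 69.3% (THP-1) to 79.5% (KG-1a) lay below 0. In all 5 other lines at once, 101 of the 323 lay above 0 (31.3%, against 9.17% of all genes) and 104 of the 332 below 0 (31.3%, against 8%). The arrays of all lines were normalized together.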

How the data were processed

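The deposited table of raw values held probe intensity on a linear scale, which the authors summarised in GenomeStudio from Illumina Human HT-12 V4.0 arrays. It held no detection p-value columns and no repeat arrays. The second deposited table held log2 values that the authors normalized and centred, used as an alternative. Intensities were background-corrected in limma 3.58.1 (R 4.3.3) with normexp and an offset of 50, which makes folds of dim genes smaller, then quantile-normalized over 17 arrays and put on the log2 scale. Of 47323 probes 28394 passed the filter at the 40th percentile of mean level. Symbols came from the platform annotation, updated by gene number (30113 probes with 1 symbol). Models were fitted with lmFit and eBayes on the tested probes: D9 within line over 17 arrays (5 residual degrees of freedom), TF-1 against 5 other lines with 1 value per line (4), and untreated TF-1 against 5 untreated arrays (4). The scripts were tested on simulated data.

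Genes were named by a rule: the 15 largest changes in each direction among the 2-fold genes, up to 10 each for the line comparison (or the 5 smallest p), 10 higher and 5 lower for untreated cells, up to 4 members of each list and 15 fixed genes. Other genes, the remaining 2-fold genes, second probes and further list members were named after their values were seen. The members, the 43 lists (806 of 929 genes measured) and the tests were chosen with earlier results of these data known. The array comparison of the study itself, by SAM, set sensitive against resistant lines and was not repeated. The alternatives are those of the closing section. Batches could not be tested, as neither chip nor scan date is given. Gene names with no probe in the annotation were not analysed here.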

Additional observations from a re-analysis of the deposited data

Results flagged for a closer look

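TEX19 differed between TF-1 and the other lines by the test of the difference itself, at -2.63 ± 0.22 (limma, adjusted p = 0.0907, 1 line against 5). Its untreated level was 10.58 in TF-1 and at most 7.08 elsewhere, where a fall as large as that of TF-1 could not show. The part of this in the difference was not tested.

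ITGAM moved in opposite directions, with -0.86 in TF-1 and every array of the other 5 lines above its untreated array. In untreated KG-1a and MV-4-11 it read 6.25 and 6.26, near the filter level of 6.16, where a fall could hardly show. The test of the difference did not pass (adjusted p = 0.178).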

How the results depend on the processing

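No sign changed under the alternatives run for the 88 named genes called in TF-1 and IFIT2, the 10 named genes of the line comparison and the 15 of the untreated comparison. The named genes that did not pass were not recomputed. Of the 88 named genes that rose or fell in TF-1, 21 kept their call under all alternatives, 56 under all but the fit of the TF-1 arrays alone, and 60 under all 6 processing alternatives. With no repeat culture, these calls rest on the spread between doses borrowed from other lines, and with 1 array per condition an error of the untreated TF-1 array enters every comparison.

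The 46 genes 2-fold at both doses became 99 with an offset of 16 (53 higher and 46 lower), 242 at 5 µM alone, 418 at a 1.5-fold limit and 8 at a 3-fold limit. The 655 genes called in TF-1 became 363 with median scaling, 377 with an offset of 16, 292 at an adjusted p under 0.05, 32 with the TF-1 arrays alone, and 407 (without MOLM-14) to 937 (without THP-1) when a line was left out. For TF-1 against the other lines, the 1 call became 0 with median scaling, at an adjusted p under 0.05, at 1 µM alone, within the pair of lines with a high lowest signal (TF-1 against THP-1) and by the methods' t-test after Benjamini-Hochberg, 4 with no filter and 0 to 1 when a line was left out. The methods' t-test, named there for the study's assays in general and not for these arrays, gave 604 genes at an unadjusted p under 0.05. The 413 genes that set untreated TF-1 apart became 258 with the authors' log2 values, 234 at the 60th percentile filter, 261 at an adjusted p under 0.05, 200 against the single THP-1 array with the spread taken from the other 4 lines, and 219 (without MV-4-11) to 569 (without KG-1a) when a line was left out. No paired analysis was possible because all arrays carry the same replicate number, other than the setting of each line's D9 arrays against its own untreated array, which the fits of the D9 effect already have.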
